A study of Homo sapiens with 6 samples.

Results

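Heterogeneous nuclear ribonucleoproteins (hnRNPs) are abundant nuclear proteins that coat nascent RNA and influence which exons are spliced in, how mRNA is exported and how long it lasts. Many hnRNP genes make several protein isoforms through alternative exons, and several hold back their own output by splicing part of their RNA into forms that carry a premature stop codon or keep an intron. HNRNPM, which the study proposed as the protein partner of the long noncoding RNA PLANE, was examined here with HNRNPK, HNRNPA1, HNRNPA2B1, HNRNPC, HNRNPU, HNRNPUL1, HNRNPL, HNRNPH1 and HNRNPD. These 10 genes were picked by name from 34957 genes, and they held 189 of the 180253 transcripts in the tables. All 10 genes and all 189 transcripts were found, and 116 of the transcripts passed the filter on low values (a mean of at least 0.5 FPKM, the fragments of a transcript scaled to its length and to the library's depth) in the si-PLANE.1 comparison and 131 in the si-PLANE.2 comparison.

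The cells were A549, an established human lung adenocarcinoma line, and all of them received an siRNA with a lipid reagent and were collected 48 h later. Negative control siRNA (si-ctrl) was given to 2 libraries, a first siRNA against PLANE (si-PLANE.1) to 2 and a second (si-PLANE.2) to 2. PLANE itself was not analysed here, so its knockdown was not checked in these libraries. Nothing in the labels says that the 2 libraries of a group came from separate cultures, so the p-values measure only the spread between these libraries, which may be technical.

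The libraries held 10572151 to 20778431 expected counts each, with both si-PLANE.2 libraries the deepest. The markers of A549 were present, with 10 of 10 listed genes such as KRT8, KRT18 and AKR1B10 at 1 FPKM or more in every library, and CDKN2A, which A549 has lost, at 0.44 FPKM or less. The lowest of the 10 was EPCAM, at 18.2 and 15.4 FPKM in si-ctrl, 14.8 and 26.5 in si-PLANE.1, and 2.59 and 2.70 in si-PLANE.2. Among 8 listed genes of immune, stromal and endothelial cells, PTPRC reached 0.02 FPKM at most and CD3E was at 0. CD68 and COL1A1 (3.29 to 13.1 FPKM over the 6 libraries) were the 2 at 1 FPKM or more in every library. The summed level of the 8 was 34.5 to 41.9 FPKM in the controls, 30.2 to 53.4 in si-PLANE.1 and 53.4 to 67.0 in si-PLANE.2, most of it CD68. The si-PLANE.2 libraries stood apart. The median of 34 histone genes, most of whose mRNAs lack a poly(A) tail, was 121 to 136 FPKM in the controls, 64.2 to 96.7 FPKM with si-PLANE.1, and 0.58 to 0.78 FPKM after si-PLANE.2. The study's methods name both poly(A) selection and removal of ribosomal RNA without saying which library had which, so the second siRNA and a different library preparation cannot be told apart in anything below that rests on si-PLANE.2.

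Alternative coding exons of HNRNPD, HNRNPK and HNRNPM and an extension in HNRNPC are given first. Much of what follows concerns which form was counted. In HNRNPM the coding transcripts that skip these exons are incomplete in the annotation, so neither exon separates complete protein forms. Each printed stretch is written 5′ to 3′ on the gene's strand from GRCh37 (hg19), with the exon in capitals between 8 intron bases on each side.

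HNRNPD, a 147-base exon coding 49 residues, at chr4:83277690-83277836 on the minus strand: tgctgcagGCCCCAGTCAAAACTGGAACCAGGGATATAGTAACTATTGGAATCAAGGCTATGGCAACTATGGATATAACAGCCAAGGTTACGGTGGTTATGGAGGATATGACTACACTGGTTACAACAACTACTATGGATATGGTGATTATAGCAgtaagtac
HNRNPD, a 57-base exon coding 19 residues, at chr4:83292681-83292737 on the minus strand: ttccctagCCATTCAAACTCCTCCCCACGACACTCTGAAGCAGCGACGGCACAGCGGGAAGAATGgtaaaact
HNRNPK, a 72-base exon coding 24 residues, at chr9:86588817-86588888 on the minus strand: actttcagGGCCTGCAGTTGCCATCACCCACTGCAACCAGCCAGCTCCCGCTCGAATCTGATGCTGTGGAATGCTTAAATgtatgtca
HNRNPM, a 45-base exon coding 15 residues, at chr19:8538548-8538592 on the plus strand: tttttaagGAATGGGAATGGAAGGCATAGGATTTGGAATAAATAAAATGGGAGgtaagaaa
HNRNPM, a 54-base exon coding 18 residues, at chr19:8548042-8548095 on the plus strand: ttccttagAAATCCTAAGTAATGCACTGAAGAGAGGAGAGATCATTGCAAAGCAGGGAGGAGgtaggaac
HNRNPC, the 39-base extension coding 13 residues that separates the long C2 form from the short C1 form, at chr14:21699117-21699155 on the minus strand, in capitals after 8 bases that both forms share: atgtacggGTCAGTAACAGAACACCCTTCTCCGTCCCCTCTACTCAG

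All of these lengths are multiples of 3, so either form keeps the reading frame. Their base composition differed, with 57.9% G or C in the short HNRNPD exon, 41.5% in the long one and 37.8% in the shorter HNRNPM exon.

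In control cells the gene totals (the FPKM of a gene's transcripts added together) ran from 531 ± 24.4 FPKM for HNRNPA1 to 66.0 ± 11.6 FPKM for HNRNPM (mean ± SD, n = 2), which was the lowest of the 10. HNRNPA1, whose protein is one of the most abundant in the nucleus, was followed by HNRNPH1 at 454 ± 94.1 FPKM, HNRNPC at 415 ± 21.4 FPKM and HNRNPA2B1 at 407 ± 40.5 FPKM. Each of these overlapped its neighbour in the order. HNRNPK, a binder of C-rich RNA, at 311 ± 17.3 FPKM and HNRNPU, a scaffold protein that binds chromatin-associated RNA, at 292 ± 18.1 FPKM overlapped each other as well. HNRNPL, which binds CA repeats, at 265 ± 19.7 FPKM, HNRNPUL1, a relative of HNRNPU with a part in the DNA damage response, at 212 ± 17.6 FPKM, and HNRNPD, the mRNA decay factor also called AUF1, at 134 ± 13.1 FPKM did not overlap their neighbours, though the higher HNRNPL library nearly met the lower HNRNPU library. After si-PLANE.1 the order was the same except that HNRNPUL1 ranked below HNRNPD. After si-PLANE.2 HNRNPM moved up to overlap HNRNPUL1, and HNRNPD became the lowest of the 10.

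**Figure D1:**
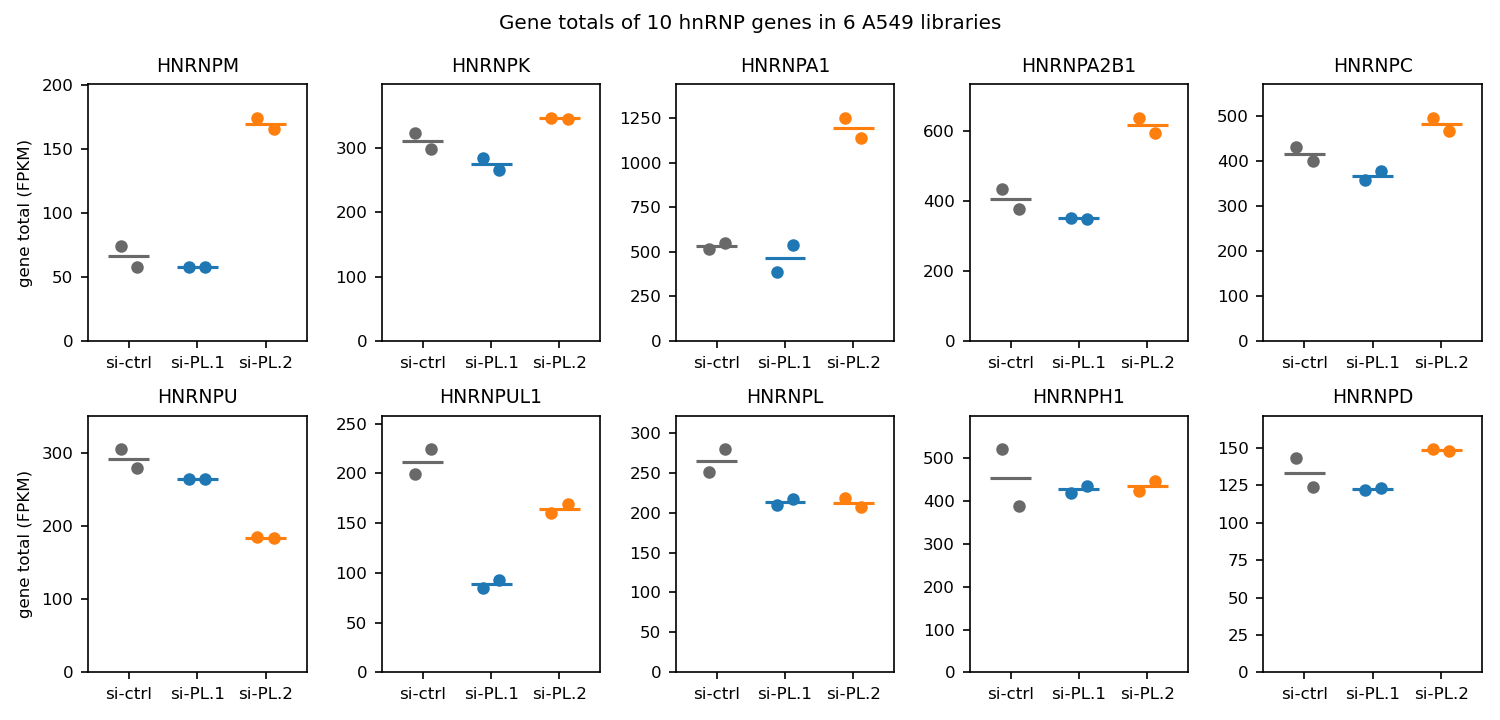
Gene totals in FPKM (y axis, linear, from 0) for each of the 10 hnRNP genes in every library (points) with the group mean (line), n = 2 per group; si-PL.1 and si-PL.2 stand for si-PLANE.1 and si-PLANE.2. HNRNPUL1 lies lowest in both si-PLANE.1 libraries (84.5 and 93.2 FPKM), and HNRNPM, HNRNPA1 and HNRNPA2B1 lie highest in both si-PLANE.2 libraries.

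The first siRNA was compared with si-ctrl to ask whether hnRNP mRNAs changed when PLANE was targeted. HNRNPUL1 was the one member that passed the test. Its total was 199 and 224 FPKM in the controls and 84.5 and 93.2 FPKM after si-PLANE.1, so both treated libraries lay well under both controls. On summed expected counts this was a log2 fold change of -1.53 ± 0.16 (SE), a level 0.346 times that of control, and it passed edgeR's quasi-likelihood test (adjusted p = 0.0417 after Benjamini-Hochberg adjustment). In that comparison 0.0275% of 14535 genes were called lower (4 genes) and 0.00688% higher (1 gene), so HNRNPUL1 was among 5 called genes in all. Its call rested on having all 4 libraries, since with any 1 of them left out the adjusted p was 0.174 to 0.413 while the log2 fold change stayed between -1.67 and -1.41. In bulk RNA, fewer cells of a kind and less RNA per cell cannot be told apart. It was also lost on log2 FPKM or TPM values in limma, with adjusted p of 0.428 to 0.545 and log2 fold changes of -1.25 to -1.17. TGFB1 lies on the opposite strand over 6201 bases of HNRNPUL1, and its own total was 46.0 and 48.1 FPKM in the controls and 57.0 and 51.3 FPKM after si-PLANE.1; the part of shared reads in the result was not tested.

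The other 9 members were lower by small amounts that did not pass. HNRNPM, the proposed partner of PLANE, was at 74.2 and 57.8 FPKM in the controls and at 57.4 and 58.0 FPKM after si-PLANE.1. The groups overlapped, and the log2 fold change was -0.26 ± 0.13 (adjusted p = 0.542, edgeR), with a 95% interval of -0.56 to 0.041. HNRNPL came nearest to the threshold among these, at 251 and 279 FPKM in the controls against 209 and 217 FPKM, a log2 fold change of -0.36 ± 0.13 (adjusted p = 0.423, edgeR). The remaining 7 had log2 fold changes from -0.31 for HNRNPA1 to -0.12 for HNRNPH1, with adjusted p of 0.561 to 0.807. All 10 log2 fold changes were below 0 and their median was -0.25, beside a median of 0.0018 over all genes tested, of which 49.7% were below 0. In FPKM both si-PLANE.1 libraries lay under both controls for 7 of the 10, against 14.2% of all genes tested, and lay over both for 0, against 26.9%. The 3 that overlapped were HNRNPM, HNRNPA1 and HNRNPH1. At an unadjusted p under 0.05 the number of members was 2, HNRNPUL1 and HNRNPL.

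The same comparison after si-PLANE.2 gave a different picture, with 5 of 10 members called higher and none called lower by edgeR (6 had an unadjusted p under 0.05, and DESeq2 called 6). In this comparison 31.8% of 14168 genes were called higher and 32.3% lower. The split between directions depended on the scaling, since limma called 3 higher and 1 lower on log2 FPKM with either pseudocount, and 2 higher and 3 lower on log2(TPM + 1). HNRNPM and HNRNPA1 were called higher on each of these scales, and those called lower on TPM were HNRNPU, HNRNPL and HNRNPUL1. HNRNPM changed most. It rose from 74.2 and 57.8 FPKM to 174 and 165 FPKM, far outside the control range, with a log2 fold change of 1.58 ± 0.12 (2.99-fold, adjusted p = 2.85e-05).

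HNRNPA1 rose from 514.1 and 548.6 FPKM to 1245.3 and 1135.7 FPKM (log2 fold change 0.98 ± 0.11, adjusted p = 0.000182). HNRNPA2B1, whose protein is close to that of HNRNPA1, rose from 436 and 378 FPKM to 638 and 595 FPKM (log2 fold change 0.61 ± 0.11, adjusted p = 0.00241), a call that was lost on log2(TPM + 1) in limma (0.44, adjusted p = 0.0811). The 74 listed pseudogenes of HNRNPA1 were given expected counts equal to 0.846% to 1.78% of its own. How reads shared with these copies were assigned is not known, and signal lost to them was not tested. HNRNPA2B1 overlaps NFE2L3 (4.74 to 7.99 FPKM over the 6 libraries) and CBX3 (61.3 to 95.9 FPKM) on the other strand.

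HNRNPK rose by less, from 324 and 299 FPKM to 347 and 346 FPKM, with a log2 fold change of 0.47 ± 0.11 on counts (adjusted p = 0.00667). It was lost when either si-PLANE.2 library was left out (adjusted p = 0.0623 and 0.0806) and on log2(FPKM + 1) in limma (0.15, adjusted p = 0.341). HNRNPL had a log2 fold change of 0.26 ± 0.10 on counts (adjusted p = 0.0457), yet its FPKM total was lower than in the controls, at 218 and 207 against 251 and 279. This call was lost without either si-PLANE.2 library (adjusted p = 0.276 and 0.19), in 1 fit over 6 libraries (0.0654), at a minimum of 2 FPKM (0.0874) and with protein-coding transcripts only (0.229), and limma on log2(TPM + 1) called HNRNPL lower (-0.48, adjusted p = 0.0365). HNRNPU was alike, at 0.24 ± 0.10 on counts (adjusted p = 0.0681) but with 305 and 279 FPKM in the controls and 185 and 184 FPKM after si-PLANE.2, which limma on log2(FPKM + 1) called lower at -0.66 (adjusted p = 0.0105). For HNRNPU and HNRNPL the direction thus differed between counts and FPKM or TPM. These values differ both in correction for length and in scaling between libraries, and the parts of the 2 were not tested. In both genes a short transcript lost counts while longer ones gained, as described with their isoforms.

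HNRNPUL1 did not pass after si-PLANE.2 in edgeR on its summed counts. Its total was 160 and 169 FPKM, under both controls in FPKM, while its log2 fold change on counts was -0.07 ± 0.11 (adjusted p = 0.607) with a 95% interval of -0.31 to 0.18. It was called lower by limma on log2(TPM + 1) (-0.52, adjusted p = 0.0293), with its most abundant transcript alone (-1.16, adjusted p = 0.00196) and with protein-coding transcripts only (-0.37, adjusted p = 0.0245). HNRNPC at 0.05 ± 0.10, HNRNPH1 at 0.03 ± 0.11 and HNRNPD at 0.21 ± 0.10 on the log2 scale did not pass either. The median of the 10 was 0.25 beside -0.03 over all genes tested. In FPKM 6 members lay above both controls (30.9% of all genes tested), 3 lay below both (49.7%), and HNRNPH1 overlapped.

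**Figure D2:**
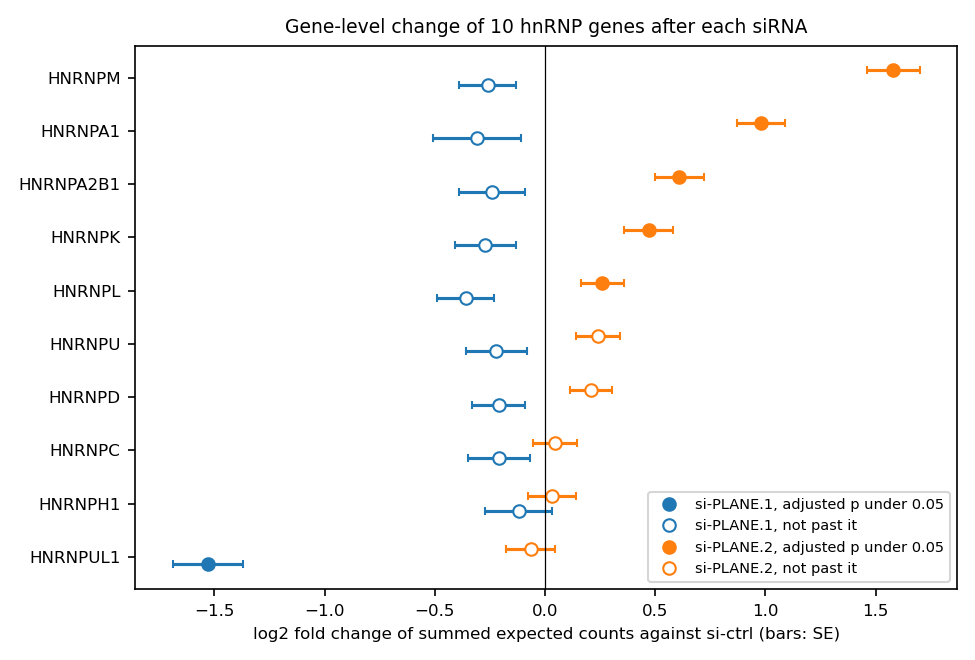
Log2 fold change of summed expected counts against si-ctrl (x axis) with its SE (bars) for the 10 genes, by siRNA; filled points have an adjusted p under 0.05 in edgeR. HNRNPUL1 is the one filled si-PLANE.1 point (-1.53), and HNRNPM (1.58) and HNRNPA1 (0.98) are the highest si-PLANE.2 points.

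The 2 siRNAs were then set against each other in 1 fit over 6 libraries, since a call with one siRNA and not the other is no test of a difference. The difference (si-PLANE.2 minus si-PLANE.1, log2) passed for 8 of 10 members, all of them higher after si-PLANE.2. Of 14440 genes tested 31.1% were called higher and 33.4% lower. It was largest for HNRNPM at 1.85 ± 0.12 (adjusted p = 5.02e-06), for HNRNPUL1 at 1.47 ± 0.13 (adjusted p = 2.46e-05) and for HNRNPA1 at 1.29 ± 0.18 (adjusted p = 0.000326). HNRNPC (0.26, 95% interval -0.01 to 0.53) and HNRNPH1 (0.15, -0.13 to 0.43) did not pass. In FPKM 7 members lay above both si-PLANE.1 libraries after si-PLANE.2 (28.2% of all genes tested), and HNRNPU lay below both (53.4%). On log2(TPM + 1) in limma 4 members were called higher and 1 lower, the latter being HNRNPU at -0.75.

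Among 14440 genes with a mean of 0.5 FPKM or more, the 5 whose centred log2(FPKM + 1) values over the 6 libraries lay nearest to those of HNRNPM were PDCD5, PSMC5, TMEM147, SEC61B and COX5A, with Euclidean distances of 0.104 to 0.145. PDCD5, for example, was at 94.1 and 74.2 FPKM in the controls, 71.7 and 68.0 FPKM with si-PLANE.1, and 220 and 203 FPKM after si-PLANE.2. The 6 points are 3 groups of 2 libraries, and all 5 genes were highest in both si-PLANE.2 libraries.

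The wider hnRNP family was read from a list of 26 further genes in the tables, of which 24 were tested. After si-PLANE.1 edgeR called 0 of them (5 had an unadjusted p under 0.05), and their median log2 fold change was -0.06. Over all genes tested 0.00688% were called higher and 0.0275% lower, with a median of 0.0018. After si-PLANE.2 it called 14 higher and 2 lower, with a median of 0.38. Over all 14168 genes tested 31.8% were called higher and 32.3% lower, with a median of -0.03. These calls are on counts. PTBP1 and EWSR1 were called higher, yet in FPKM both si-PLANE.2 libraries lay below both controls for each. The calls with larger changes included HNRNPA0 at 1.51 ± 0.10 (adjusted p = 1.76e-05) and RALY, a relative of HNRNPC, at 1.23 ± 0.09 (adjusted p = 3.27e-05). Both genes called lower encode relatives of the splicing repressor PTBP1. PTBP2, its neuronal paralogue, was at 33.0 and 29.1 FPKM in the controls, 72.7 and 58.9 FPKM with si-PLANE.1, and 4.12 and 3.26 FPKM after si-PLANE.2, so it lay above both controls with one siRNA and below both with the other. Its log2 fold change was 1.00 ± 0.17 after si-PLANE.1 (adjusted p = 0.241) and -1.69 ± 0.18 after si-PLANE.2 (adjusted p = 0.000144), and the difference between siRNAs passed (-2.68, adjusted p = 5.05e-06). PTBP3 was lower after si-PLANE.2 (-1.48 ± 0.10), from 90.3 and 76.9 FPKM to 29.1 and 27.8 FPKM.

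At the level of single transcripts edgeR called 0 of 116 hnRNP transcripts after si-PLANE.1, as it called 0% of all 57625 transcripts in either direction. At an unadjusted p under 0.05 there were 14, and DESeq2 called 4, all of them lower and all from HNRNPUL1. These 4 were its main protein-coding transcripts. HNRNPUL1-202 went from 65.2 and 72.2 FPKM to 21.8 and 26.6 FPKM, HNRNPUL1-220 from 41.1 and 39.5 FPKM to 11.0 and 14.1 FPKM, HNRNPUL1-213 from 30.4 and 31.2 FPKM to 4.13 and 8.16 FPKM, and HNRNPUL1-204 from 27.5 and 24.0 FPKM to 9.88 and 8.71 FPKM. The groups did not overlap for any of them. HNRNPUL1-208, which is annotated for nonsense-mediated decay (the pathway that removes mRNAs with a premature stop), was also lower, at 15.8 and 16.9 FPKM against 5.06 and 9.84 FPKM. The fall of the gene total was thus spread over 5 transcripts with mean control shares from 32.5% to 7.72%, and none of the 5 passed the test of usage (each transcript against the rest of its gene). Over all members usage was called for 0 of 116 transcripts by edgeR after si-PLANE.1 (5 with an unadjusted p under 0.05, and 0 in limma on log2 shares), where 0.134% of 51344 transcripts were called higher and 0.103% lower.

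After si-PLANE.2, 38 of 131 hnRNP transcripts were called higher and 18 lower, where 12.9% and 12.7% of 56791 transcripts were. The excess of higher calls was not seen in limma, which called 26 higher and 28 lower on log2(FPKM + 0.1), 32 and 34 on log2(FPKM + 1), and 32 and 35 on log2(TPM + 1), and 1 edgeR fit over 6 libraries called 31 and 26. Usage was called higher for 19 and lower for 24 of the 131, where 6.71% and 9.65% of 50736 transcripts were. These transcript counts rested on both si-PLANE.2 libraries, since leaving out replicate 3 gave 0 calls among the members and leaving out replicate 4 gave 5, with 0 and 795 over all transcripts. Usage still gave 24 and 26 calls. By gene, 6 of 8 tested transcripts were called in HNRNPU, 6 of 10 in HNRNPD, 8 of 14 in HNRNPUL1 and 12 of 35 in HNRNPH1.

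HNRNPU showed the plainest exchange between 2 transcripts. HNRNPU-210, a 1438-base transcript whose 5′ end is marked as incomplete in the annotation, was at 187 and 170 FPKM in the controls, 159 and 152 FPKM with si-PLANE.1, and 10.7 and 16.0 FPKM after si-PLANE.2. HNRNPU-201, a 3704-base transcript that codes the full protein, was at 49.3 and 42.7 FPKM, 37.6 and 31.8 FPKM, and 113 and 104 FPKM in the same groups. The mean share of HNRNPU-210 in its gene went from 61.1% to 7.24% and that of HNRNPU-201 from 15.7% to 58.7%, and the usage of both passed the test (log2 -3.78, adjusted p = 3.97e-09, and 1.18, adjusted p = 0.00243, edgeR). A retained-intron transcript of the gene, HNRNPU-209, rose with the longer form, from 1.47 and 2.78 FPKM to 27.9 and 34.5 FPKM. Its other retained-intron transcripts fell after si-PLANE.2. HNRNPU-202 went from 24.3 and 19.0 FPKM to 3.93 and 2.69 FPKM (usage log2 -2.75, adjusted p = 9.05e-06, edgeR). HNRNPU-207 went from 25 and 38 counts to 0 in both libraries (usage adjusted p = 0.000187, edgeR). COX20 overlaps 4420 bases of HNRNPU on the other strand, at 36.0 and 35.8 FPKM in the controls and 24.4 and 23.0 FPKM after si-PLANE.2.

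HNRNPL lost a short transcript as well. HNRNPL-207, which is 900 bases long and marked as incomplete at its 3′ end, was at 104 and 134 FPKM in the controls, 90.3 and 84.2 FPKM with si-PLANE.1, and 5.95 and 5.57 FPKM after si-PLANE.2. Its share dropped from 44.7% to 2.71% after si-PLANE.2 (usage log2 -4.41 ± 0.25, adjusted p = 7.28e-12, edgeR). HNRNPL-210, a 1633-base coding transcript, went from 116 and 115 FPKM to 157 and 147 FPKM, and its share from 43.8% to 71.6%, but its usage did not pass (log2 0.33, adjusted p = 0.582, edgeR). The HNRNPL transcripts whose usage was called higher were HNRNPL-201 (log2 2.44, adjusted p = 4.35e-05), which went from 1.20% to 8.59% of the gene, and HNRNPL-214 (log2 4.79, adjusted p = 0.00171). Both are annotated as coding and were named here after their values were seen. HNRNPL-214 is a 593-base fragment incomplete at both ends, with 2 counts in each control.

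HNRNPA1 gained a transcript that was near 0 in the controls. HNRNPA1-206, 530 bases long and incomplete at its 3′ end, was at 0 and 0.93 FPKM in the controls, 1.12 and 0 FPKM with si-PLANE.1, and 242 and 180 FPKM after si-PLANE.2, where it made up 17.7% of the gene (usage log2 7.90 ± 0.51, adjusted p = 1.91e-10, edgeR). The complete HNRNPA1-201 rose as well, from 143 and 149 FPKM to 416 and 393 FPKM. HNRNPA1-202, another coding transcript, was 162 and 158 FPKM in the controls and 184 and 160 FPKM after si-PLANE.2, and did not pass (log2 0.39, adjusted p = 0.0798). HNRNPA1-205, annotated for nonsense-mediated decay, held 33.5% of the gene's FPKM in si-ctrl and 30.4% in si-PLANE.2. Its share of expected counts went the other way, from 23.8% and 25.6% to 28.0% and 30.9%, and its usage did not pass (log2 0.25, adjusted p = 0.697, edgeR).

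HNRNPC, whose protein binds runs of U and shields cryptic exons, had a main coding transcript that overlapped between groups and did not pass. HNRNPC-204 was at 219 and 225 FPKM in the controls and 225 and 193 FPKM after si-PLANE.2 (log2 0.21, adjusted p = 0.271, edgeR). A 604-base retained-intron transcript, HNRNPC-206, went from 2.53 and 0.77 FPKM to 76.0 and 98.5 FPKM (usage log2 5.92 ± 0.94, adjusted p = 1.88e-05, edgeR), reaching 18.2% of the gene. The 4501-base coding transcript HNRNPC-203 fell from 16.7 and 16.5 FPKM to 0.73 and 0.91 FPKM (usage log2 -4.20, adjusted p = 1.07e-05, edgeR). ENST00000449098, which is not in the annotation, fell from 23.7 and 15.4 FPKM to 0.92 and 4.03 FPKM (usage log2 -2.85, adjusted p = 0.00132, edgeR).

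In HNRNPD the largest control transcript, ENST00000543098, is not in the annotation used here, so its exons are unknown. It was at 77.8 and 70.8 FPKM in the controls, 68.7 and 83.5 FPKM with si-PLANE.1, and 5.52 and 0 FPKM after si-PLANE.2 (usage log2 -4.72 ± 0.87, adjusted p = 0.000664, edgeR). HNRNPD-203, which lacks the 147-base exon and codes the p40 form, rose from 47.1 and 46.6 FPKM to 77.4 and 67.4 FPKM. HNRNPD-202, which lacks the 57-base exon and codes the p42 form, rose from 1.42 and 0.44 FPKM to 21.7 and 27.2 FPKM. HNRNPD-207, a fragment incomplete at its 3′ end, had 0 counts in every control and every si-PLANE.1 library and 144 and 176 counts after si-PLANE.2, at least 31.6-fold higher against a floor of 3 counts per library. HNRNPD-205 likewise had 0 counts in the controls (at least 25.9-fold higher), and the nonsense-mediated decay form HNRNPD-209 went from 0 and 2 counts to 141 and 191 counts.

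In HNRNPUL1 the usage of 2 of 14 transcripts passed after si-PLANE.2 and of 0 of 14 after si-PLANE.1, though whether usage differed between the siRNAs was not tested. HNRNPUL1-220 went to 0.63 and 1.64 FPKM and HNRNPUL1-213 to 2.88 and 0.73 FPKM after si-PLANE.2, and the usage of both was lower (log2 -4.90, adjusted p = 0.000106, and -3.81, adjusted p = 0.00254, edgeR). HNRNPUL1-204 rose from 27.5 and 24.0 FPKM to 64.3 and 67.6 FPKM, which made it the main transcript at 40.1% of the gene, and HNRNPUL1-208 rose to 32.0 and 38.2 FPKM.

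In HNRNPM 4 of 7 tested transcripts were called higher after si-PLANE.2 and 0 lower, and the main coding transcripts rose together. HNRNPM-201 went from 39.6 and 29.9 FPKM to 102 and 86.6 FPKM and HNRNPM-202 from 10.9 and 13.0 FPKM to 25.6 and 30.6 FPKM. Their shares stayed close, at 52.5% and 55.4% for HNRNPM-201 and 18.6% and 16.7% for HNRNPM-202, and neither passed the usage test (adjusted p = 0.971 and 0.892, edgeR). HNRNPM-208, a fragment incomplete at both ends, gained usage, from 3.45 and 1.13 FPKM to 22.4 and 21.1 FPKM (usage log2 1.90, adjusted p = 0.0309). Usage was called lower for HNRNPM-203, HNRNPM-211 and HNRNPM-216 (log2 -4.81, -6.03 and -3.85, adjusted p = 0.0046, 0.00436 and 0.0123, edgeR). These were minor forms, with 10 to 42 counts per control library.

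HNRNPA2B1 also rose without a change of main form. HNRNPA2B1-202 held 84.5% of the gene in si-ctrl, 80.6% in si-PLANE.1 and 85.5% in si-PLANE.2, at 370 and 319 FPKM, 281 and 285 FPKM, and 545 and 509 FPKM. Its nonsense-mediated decay transcript, HNRNPA2B1-203, gained usage after si-PLANE.2, from 30.4 and 19.1 FPKM to 73.5 and 68.4 FPKM (usage log2 1.11, adjusted p = 0.0322). HNRNPK kept HNRNPK-202 as its main transcript, at 49.1%, 46.9% and 54.3% of the gene in the 3 groups. In HNRNPH1, which binds runs of G, the retained-intron transcript HNRNPH1-242 fell from 95.8 and 88.2 FPKM to 11.2 and 16.2 FPKM after si-PLANE.2 (usage log2 -2.52, adjusted p = 0.0311), and another, HNRNPH1-233, went from 0 counts in si-ctrl to 199 and 220 counts, at least 43.8-fold higher.

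**Figure D3:**
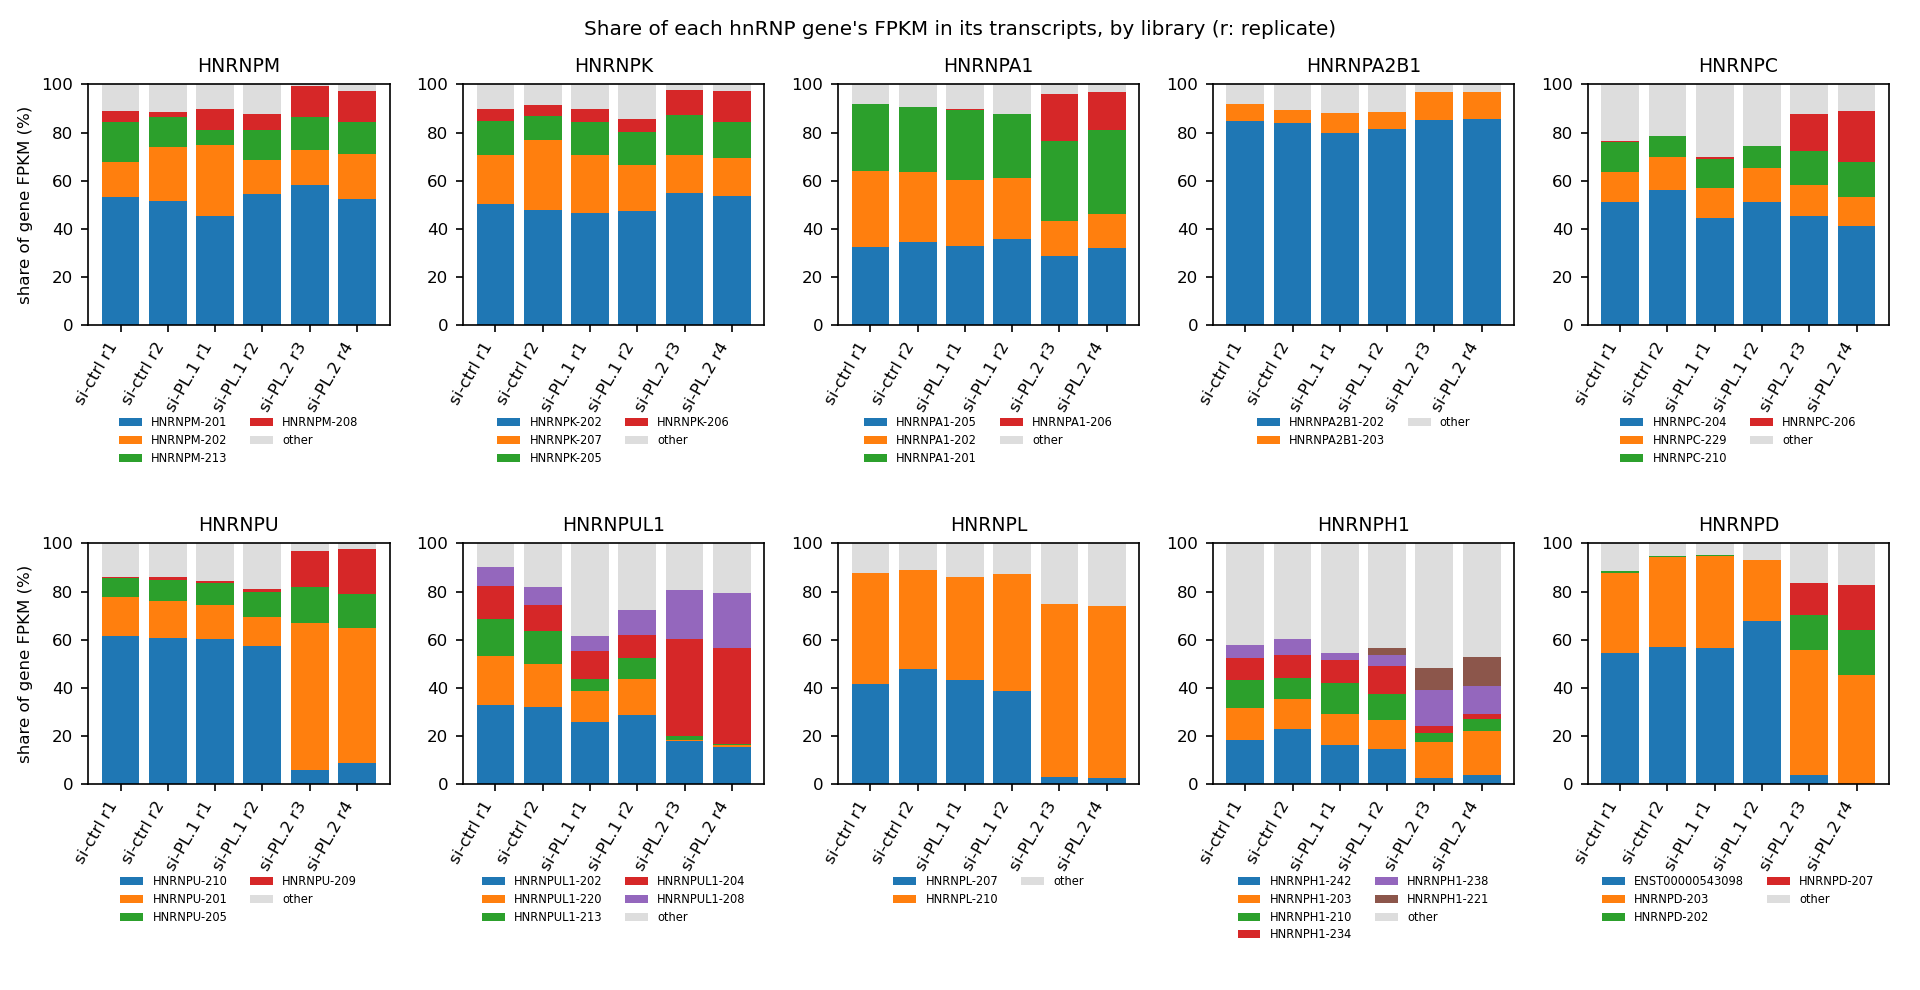
Share of each gene's FPKM (y axis, percent) held by each transcript with a mean share of 10% or more in any group (colours) and by all others (grey), in every library (x axis, r for replicate). The si-ctrl and si-PLANE.1 bars look alike for HNRNPU and HNRNPL, where the blue transcripts (61.1% and 44.7% in si-ctrl) shrink to 7.24% and 2.71% in si-PLANE.2.

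The exons printed at the start were followed through the transcripts that hold or skip them, as the percentage of FPKM in transcripts with the exon. The 147-base HNRNPD exon, skipped in the p37 and p40 forms, was in 9.96% and 6.73% in si-ctrl, 5.74% and 5.72% in si-PLANE.1, and 35.3% and 42.0% in si-PLANE.2. The 57-base HNRNPD exon was in 97.3% and 98.2%, 98.9% and 98.1%, and 83.3% and 79.7% in the same groups. Both si-PLANE.2 libraries thus lay outside the range of the other 4 for both HNRNPD exons, with the short one in a smaller and the long one in a larger percentage. These percentages leave out transcripts that are not in the annotation, which held 54.6% and 56.9% of HNRNPD FPKM in si-ctrl, 56.4% and 67.9% in si-PLANE.1, and 3.70% and 0% in si-PLANE.2. They thus rest on under 50% of the gene in 4 libraries and on a larger part of it in the other 2. Nearly all of the FPKM outside the annotation was ENST00000543098, whose exons are unknown. The fragment HNRNPD-207, 13.2% and 18.6% of the gene in si-PLANE.2, does not reach the 147-base exon. It is therefore also left out of that exon's percentages.

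The 72-base HNRNPK exon was in 94.4% and 95.0% in si-ctrl, 94.3% and 94.0% in si-PLANE.1, and 89.4% and 86.7% in si-PLANE.2. The HNRNPC extension of the C2 form was in 32.2% and 28.5% in si-ctrl, 32.7% and 29.0% in si-PLANE.1, and 36.9% and 39.0% in si-PLANE.2. In HNRNPM the 45-base exon was in 81.5% and 86.1% in si-ctrl, 92.3% and 85.3% in si-PLANE.1, and 86.0% and 86.3% in si-PLANE.2, with the groups interleaved. Its 54-base exon was in 94.8% and 97.8%, 90.4% and 92.7%, and 87.1% and 86.8%, with no overlap between groups, and the transcript that skips it is the fragment HNRNPM-208. HNRNPUL1 also has alternative coding exons, not printed at the start, each skipped in HNRNPUL1-213, which is incomplete at its 5′ end. Its 222-base exon was in 69.3% and 72.1% in si-ctrl, 86.9% and 78.7% in si-PLANE.1, and 91.1% and 97.3% in si-PLANE.2. A 192-base version was in 60.7% and 64.8%, 86.0% and 74.9%, and 97.6% and 99.4%. A 36-base version was in 57.5% and 55.9%, 72.6% and 63.3%, and 17.9% and 69.2%. The last 2 values rest on little signal, 0.63 and 1.64 FPKM with the exon and 2.88 and 0.73 FPKM without it. Each version was set only against HNRNPUL1-213 and not against the other versions, so these HNRNPUL1 values are not shares of the gene. With 2 libraries against 2 an exact permutation test cannot reach a two-sided p under 0.333, so no test of these percentages was made.

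**Figure D4:**
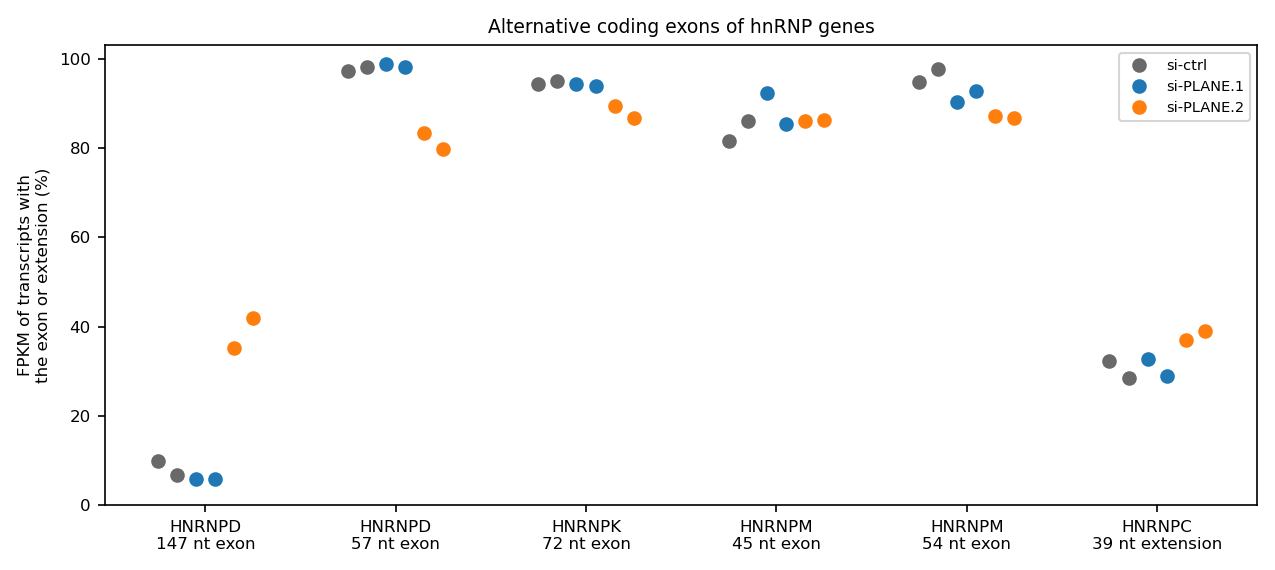
Percentage of FPKM in transcripts that hold each printed coding exon, or the HNRNPC extension (y axis), with 1 point per library coloured by group. The si-PLANE.2 points lie apart for both HNRNPD exons (35.3% and 42.0% for the 147 nt exon), while the HNRNPM 45 nt exon shows no separation.

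Retained-intron transcripts, in which an intron stays in the RNA, made up 14.8% and 12.4% of the members' summed FPKM in the controls, 17.5% and 16.9% in si-PLANE.1, and 8.71% and 10.6% in si-PLANE.2. Over all genes in the tables the share was 8.09% and 8.29% in si-ctrl, 8.39% and 8.41% in si-PLANE.1, and 4.59% and 4.75% in si-PLANE.2, so both the members and the tables as a whole were lowest in si-PLANE.2. The members' pooled share also falls when a gene with few such transcripts rises, as HNRNPA1 did (1.01% and 0.973% of it in si-ctrl). HNRNPH1 had the highest share, at 60.6% and 56.6% in si-ctrl, 64.5% and 65.3% in si-PLANE.1, and 45.9% and 50.4% in si-PLANE.2. In HNRNPM the share went from 8.02% and 7.58% in si-ctrl to 0.155% and 0.449% in si-PLANE.2, and in HNRNPK from 6.61% and 6.10% to 1.38% and 1.16%.

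In HNRNPU and HNRNPC the share was higher in si-PLANE.2 than in si-ctrl. HNRNPU had 10.4% and 10.9% in si-ctrl and 17.2% and 20.2% in si-PLANE.2, and HNRNPC 7.90% and 4.88% against 16.7% and 22.3%, mostly through HNRNPU-209 and HNRNPC-206. Of 44 retained-intron member transcripts tested after si-PLANE.2, edgeR called 6 higher and 10 lower, beside 4.61% higher and 14.8% lower over all such transcripts. Of 13 member transcripts annotated for nonsense-mediated decay it called 7 higher and 0 lower, beside 10.3% and 10.7% over all of that class. In the usage test it called 2 of the 13 higher and 1 lower, beside 8.29% and 10.1%. In FPKM these forms made up 11.2% and 12.9% of the members in si-ctrl, 11.7% and 13.3% in si-PLANE.1 and 15.1% and 16.0% in si-PLANE.2. Over all genes in the tables they made up 2.89% and 2.52%, 3.35% and 2.72%, and 2.13% and 2.17%. The pooled share of the members also moves with gene totals, and the 2 were not separated. HNRNPA1-205 went from 166 and 190 FPKM in si-ctrl to 356 and 366 FPKM in si-PLANE.2. Within HNRNPA1 the share of decay forms was 32.3% and 34.6% in si-ctrl and 28.7% and 32.3% in si-PLANE.2. The largest shift was in HNRNPUL1, from 9.62% and 8.71% in si-ctrl to 10.1% and 13.2% in si-PLANE.1 and 20.1% and 22.8% in si-PLANE.2.

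**Figure D5:**
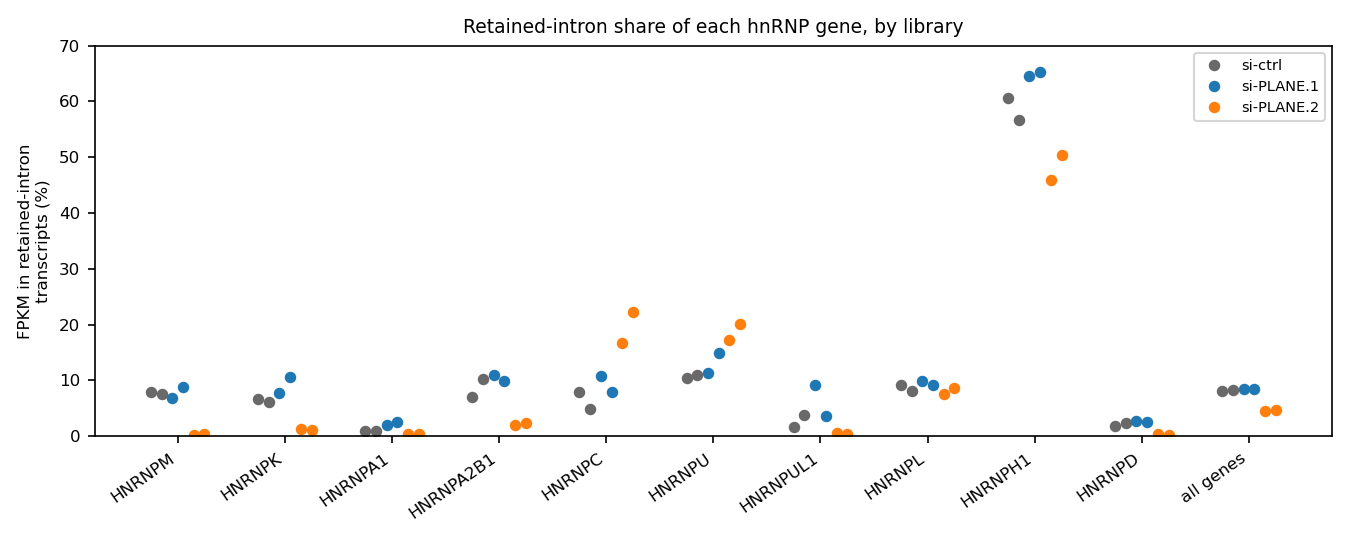
Share of each gene's FPKM in transcripts annotated as retained introns (y axis, percent), with 1 point per library coloured by group, and the same over all genes in the tables. The si-PLANE.2 points lie lowest for HNRNPM, HNRNPK, HNRNPA2B1 and all genes, and highest for HNRNPC and HNRNPU.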

How the data were processed

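RNA from 6 A549 libraries was sequenced as paired ends. The authors deposited expected counts and FPKM (fragments scaled to transcript length and library depth) per transcript in 2 tables that repeat the same si-ctrl columns. The submitters' notes name Trimmomatic 0.30, HISAT2 2.0.1, HTSeq 0.6.1, DESeq and hg19; the tool behind the expected counts is not given in the sources used here, nor is strandedness, so reads from a gene and an antisense neighbour cannot be told apart. Expected counts need not be whole, and were rounded. Transcripts without a gene identifier (3.03% to 3.62% of expected counts) were left out of gene totals.

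Counts were tested in edgeR 4.0.16 (R 4.3.3) by its quasi-likelihood test with TMM factors, per siRNA against si-ctrl (4 libraries), and over all 6 libraries for the difference between siRNAs, on features with a mean of at least 0.5 FPKM. Usage was tested within genes by edgeR's exon-usage test on transcripts. Benjamini-Hochberg adjustment ran over all features, with a threshold of 0.05. Alternatives used limma 3.58.1, DESeq2 1.42.0, other filters, pseudocounts of 1 and 0.1 FPKM, and libraries left out. The pipeline was tested on simulated data.

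The 10 genes and the lists were chosen with earlier results of these data known. Named were the 10 genes, their transcripts with a mean share of at least 10% in any group or called with the largest changes, the 3 most changed called genes of the wider family in each direction, and the 5 genes nearest to HNRNPM. 1 gene of the wider family and 1 exon that these rules select are not reported here. Names, classes and exons came from GENCODE 44 on GRCh37, which holds 182 of the 189 transcripts. Its exonic length differs from the deposited one for some, all 8 of HNRNPU included. FPKM and expected counts of a transcript are estimates that divide reads shared by overlapping forms, and fragments of incomplete models can take reads from complete ones. Floors and intervals cover counting error or library spread only.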

Additional observations from a re-analysis of the deposited data

Results flagged for a closer look

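The 2 siRNAs are meant to lower the same RNA, so a member whose change differed between them was set aside for a closer look. This was so for 8 of 10 members by the test of the difference itself (edgeR, si-PLANE.2 minus si-PLANE.1, log2). The differences were 1.85 for HNRNPM, 1.47 for HNRNPUL1, 1.29 for HNRNPA1, 0.85 for HNRNPA2B1, 0.75 for HNRNPK, 0.63 for HNRNPL, 0.47 for HNRNPU and 0.43 for HNRNPD, all higher after si-PLANE.2. The 2 si-PLANE.2 libraries also had the lowest histone mRNA level (a median of 0.58 to 0.78 FPKM against 64.2 to 136 FPKM in the other 4) and the largest depth, and the part of these in the differences was not tested.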

How the results depend on the processing

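With 1 library left out at a time, where the lone library left in a group is assumed to vary like the others, the called members went from 1 to 0 after si-PLANE.1 and ranged from 3 to 7 after si-PLANE.2, where 3 came without either si-PLANE.2 library. They ranged from 6 to 8 for the difference between siRNAs, from 0 to 55 for transcripts and from 24 to 52 for usage after si-PLANE.2, and from 0 to 2 for usage and 0 to 0 for transcripts after si-PLANE.1. The HNRNPUL1 call after si-PLANE.1 (0 members left) was lost with limma on log2(FPKM + 1), log2(FPKM + 0.1) or log2(TPM + 1), with the most abundant transcript alone, and with protein-coding transcripts only (adjusted p = 0.074; an alternative chosen after seeing the data). Its log2 fold change stayed between -1.67 and -1.17. The most abundant transcript alone gave 8 members after si-PLANE.2, 6 higher and 2 lower. For the difference between siRNAs limma on log2(TPM + 1) gave 5 members, and for transcripts after si-PLANE.1 DESeq2 gave 4. The other alternatives kept the totals of these counts within 1.5 times, but not their split by direction. After si-PLANE.2, 5 members called higher and 0 lower became 3 and 1 with limma on log2 FPKM and 2 and 3 on log2(TPM + 1), and 38 transcripts higher and 18 lower became 26 and 28 on log2(FPKM + 0.1) and 32 and 35 on log2(TPM + 1). For the difference between siRNAs limma on log2 FPKM called 5 members higher and 1 lower.

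After si-PLANE.2, scaling moved the median over all genes tested from -0.03 to -0.22 with log2(FPKM + 1), -0.27 with log2(FPKM + 0.1) and -0.37 with log2(TPM + 1), and single genes turned with it. After si-PLANE.2 HNRNPU was -0.66 (with either FPKM pseudocount), -0.82 (TPM) and -3.55 (most abundant transcript), HNRNPL -0.32 (with either) and -0.48 (TPM), and HNRNPH1 -0.042 (with either), -0.20 (TPM) and -0.019 (minimum of 2 FPKM). HNRNPK was -0.0047 and HNRNPD -0.0022 with TPM, and HNRNPC was -0.0054 with a minimum of 2 FPKM and -0.0042 with protein-coding transcripts only. For the difference between siRNAs HNRNPU was -0.52 (with either) and -0.75 (TPM), HNRNPL -0.0035 (with either) and -0.24 (TPM), and HNRNPH1 -0.21 (TPM). After si-PLANE.1 HNRNPH1 was 0.0043 with TPM. With a library left out HNRNPH1 ranged from -0.23 to 0.014 after si-PLANE.1 and from -0.07 to 0.16 after si-PLANE.2, HNRNPC from -0.033 to 0.12 and HNRNPUL1 from -0.15 to 0.037 after si-PLANE.2. The cause of these turns was not tested, and this includes the loss of short transcripts described for HNRNPU and HNRNPL. With protein-coding transcripts only, HNRNPD (1.08, adjusted p = 0.000266) and HNRNPH1 (0.55, adjusted p = 0.00667) passed as higher after si-PLANE.2 and HNRNPUL1 as lower (-0.37, adjusted p = 0.0245). Shares taken from expected counts instead of FPKM were smaller for short transcripts, as for HNRNPU-210 (36.9% in si-ctrl, 2.71% in si-PLANE.2) and HNRNPL-207 (27.1% and 1.27%).

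With the replicate block 2 members were called after si-PLANE.1, HNRNPUL1 and HNRNPL (-0.36, adjusted p = 0.0265), with 1225 genes called in place of 5. Only si-ctrl and si-PLANE.1 share replicate numbers, nothing says that a number marks a shared batch, and across 14535 genes the deviations of same-numbered libraries correlated at r = 0.261. No paired analysis was possible for si-PLANE.2, whose replicates carry other numbers. Depth differed by group, with 10572151 to 11093137 expected counts in si-PLANE.1 and 18281765 to 20778431 in si-PLANE.2.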
